A study of Mus musculus and Sus scrofa with 18 samples.

Results

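The 10 genes described here encode proteins of the blood vessel wall in the brain. Cldn5, Ocln, Cdh5 and Pecam1 belong to the junctions between endothelial cells, Mfsd2a and Plvap to transport across these cells, and Vcam1, Icam1, Sele and Selp to the capture of leukocytes from the blood. All 10 symbols mapped to a single Ensembl ID each among the 55357 genes of the mouse count table. Of the 10 genes, 8 passed the filter on low counts, which kept 19463 genes, and Sele and Selp did not. Each of the 8 had at least 65 counts in every library, so that none passed through a single group.

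The study sequenced striatal RNA of 9 mice, 3 in each of 3 groups, and every library came from a different animal, so that p-values measure the spread between mice. WT mice received AAV9-Ctrl gRNA, a non-targeting guide, without CasRx. Untreated HD mice were heterozygous HD 140Q-KI animals, in which a human HTT exon 1 with a long CAG repeat stands in place of the mouse exon on 1 allele, and received AAV9-CasRx with AAV9-Ctrl gRNA. Treated HD mice had the same genotype and received AAV9-CasRx with AAV9 vectors for the guide pairs HTT gRNA1 + 2 and HTT gRNA3 + 4, which direct the RNA-cutting enzyme CasRx to HTT mRNA. The heterozygous knock-in mice were bred with C57BL/6J mothers, the mice were injected into the striatum on both sides at 6 months of age, and tissue was taken about 6 weeks later. Since both HD groups received CasRx and WT mice did not, effects of the knock-in and of the CasRx vector cannot be told apart in a comparison with WT.

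The blood-brain barrier is formed by endothelial cells that seal the gaps between them with tight junctions, carry nutrients through dedicated transporters and allow little transport in vesicles. Pericytes and astrocytes keep this state in place, in part through Wnt signals. Inflamed vessels display selectins, on which leukocytes roll, and then ICAM-1 and VCAM-1, which leukocyte integrins grip before the cells cross the wall. Most of these proteins are specific to vessels in the healthy brain, but VCAM-1 and ICAM-1 can also be made by reactive glia and by immune cells. In RNA from whole striatum, fewer cells of a type and less RNA per cell cannot be told apart.

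The promoters of Icam1 and Cldn5 are shown because these genes had the largest differences from WT of the adhesion and of the junction genes. Each is the stretch of 250 bases before the RefSeq start of the gene, read from build GRCm38.p6, 5′ to 3′ on the strand of the gene. The Icam1 promoter lies on the plus strand at chr9:21015690-21015939 and the Cldn5 promoter on the plus strand at chr16:18776597-18776846.
Icam1: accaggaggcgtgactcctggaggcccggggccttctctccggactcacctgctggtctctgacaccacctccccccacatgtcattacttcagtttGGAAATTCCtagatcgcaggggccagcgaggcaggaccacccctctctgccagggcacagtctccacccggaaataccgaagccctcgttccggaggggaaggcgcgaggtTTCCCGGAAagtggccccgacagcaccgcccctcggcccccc
Cldn5: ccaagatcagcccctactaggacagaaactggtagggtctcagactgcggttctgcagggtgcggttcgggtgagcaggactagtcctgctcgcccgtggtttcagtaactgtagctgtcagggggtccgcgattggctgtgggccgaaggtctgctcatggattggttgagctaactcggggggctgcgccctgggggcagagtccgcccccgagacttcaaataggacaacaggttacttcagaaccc
Capitals in the Icam1 promoter mark 2 stretches of 9 bases. TTCCCGGAA, 42 to 34 bases before the start, matches the gamma-activated site (GAS, searched as TTCNNNGAA), a motif bound by STAT factors, which 7.02% of the 32851 RefSeq promoter windows of this length hold on either strand. GGAAATTCC, 153 to 145 bases before the start, matches a relaxed kappa B motif (searched as GGAANTTCC), which 0.813% of the windows hold and which was chosen after the windows had been read. The stricter kappa B motif (held by 7.25% of windows), the interferon-stimulated response element (searched as GAAA, any 2 bases and GAAA, 2.98%) and the TATA box (TATAAA, 12.4%) had no match in the Icam1 promoter, and none of the 5 motifs matched in the Cldn5 promoter. In the window of Sele, which encodes E-selectin, TTCCCAGAA matched GAS at 140 to 132 bases and TATAAA stood 49 to 44 bases before the start. The windows of Ocln, Mfsd2a and Selp held no match, and 6 of the 10 genes had an entry in the table. A match is a description of the letters and not evidence of binding.

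The libraries held between 27184356 and 32102121 counts, and levels are given as CPM, counts scaled to a common depth with the TMM factors of edgeR. The targeted gene Htt was at 182 to 191 CPM in WT, 140 to 150 CPM in untreated and 130 to 140 CPM in treated mice, and its adjusted p in treated against untreated mice was 0.942 (edgeR quasi-likelihood test, Benjamini-Hochberg). All treated mice were below all untreated mice, as held for 8.83% of all tested genes. Against WT, Htt was called lower in untreated (0.775-fold, adjusted p = 0.00656) and treated mice (0.725-fold, adjusted p = 0.00425, same edgeR test). These counts come from 3′ ends of mRNA and are given per gene, without a split between the mutant and the mouse allele. The paper measured mutant HTT mRNA by RT-qPCR and reported a reduction, and it reported less mutant protein and fewer aggregates as well. Each of the 21 general endothelial markers passed the filter, and their summed level was 380 to 424 CPM in WT, 439 to 544 CPM in untreated and 443 to 468 CPM in treated mice. Summed levels of 14 pericyte and smooth muscle markers were 224 to 256, 249 to 299 and 252 to 284 CPM in the same order. Untreated replicate 3 had the highest summed level of 12 interferon response genes (1292 CPM, against 53.5 to 55.1 CPM in WT) and of 12 T cell markers (106 CPM, against 0.264 to 0.931 CPM in WT). WT replicate 2 had the highest summed level of 12 choroid plexus markers (3891 CPM, against 38.9 to 1337 CPM in the others). Transcripts of 4 Y-linked genes were counted in the 3 WT mice and in untreated replicate 1 (3435 to 5005 counts) and were at 0 in the other 5 libraries. Sex and group can thus not be told apart between treated and WT mice.

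Of the junction genes, Cldn5 was higher in both HD groups than in WT, whereas Ocln showed no such difference. Cldn5 (ENSMUSG00000041378, chromosome 16) encodes claudin-5, the main claudin of tight junctions in brain endothelium. It was at 18.1, 17.0 and 22.4 CPM in WT mice, at 31.2, 31.1 and 37.2 CPM in untreated HD mice and at 36.0, 40.3 and 34.3 CPM in treated HD mice, replicates 1 to 3. All 6 HD mice were above all WT mice, and the ranges of the HD groups overlapped. Wholly above WT lay 15.0% of all tested genes in untreated and 13.4% in treated mice. The group means were 19.2 ± 2.85, 33.2 ± 3.50 and 36.9 ± 3.05 CPM (SD, n = 3 mice each). Against WT, Cldn5 rose 1.73-fold in untreated mice (log2 fold change 0.79, 95% interval 0.50 to 1.08, adjusted p = 0.00708, edgeR quasi-likelihood test with Benjamini-Hochberg adjustment over all tested genes). In treated mice it rose 1.92-fold (log2 fold change 0.94, 95% interval 0.66 to 1.23, adjusted p = 0.00563, same edgeR test). These comparisons share the WT mice. Between the HD groups the log2 fold change of Cldn5 was 0.15 with a 95% interval of −0.13 to 0.44 (adjusted p = 0.994, same edgeR test).

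Untreated replicate 1 was the single HD mouse with Y-linked counts, as in all WT mice, and its Cldn5 level of 31.2 CPM was above the 17.0 to 22.4 CPM of WT. With the Y-linked signal as a covariate, the log2 fold change of Cldn5 was 0.70 (adjusted p = 0.110, edgeR) in untreated and 0.81 (adjusted p = 0.438, edgeR) in treated mice against WT. No group but the untreated one held mice with and without Y-linked counts. The covariate was therefore set by untreated replicate 1 against the other untreated mice, here and in all values given with it below. Over 16 alternatives, among them each mouse left out in turn, Cldn5 kept its call against WT in 15 for either HD group, this covariate being the exception.

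Ocln (ENSMUSG00000021638, chromosome 13) encodes occludin, a tight junction protein that is found in epithelia as well. Its levels were 6.80, 9.73 and 10.2 CPM in WT, 9.89, 8.30 and 8.83 CPM in untreated and 8.37, 8.07 and 8.98 CPM in the treated group. The 3 groups overlapped, and WT replicate 1 was the lowest of all mice. The log2 fold change of Ocln was 0.01 (95% interval −0.36 to 0.39) in untreated and −0.08 (95% interval −0.45 to 0.30) in treated mice against WT, with adjusted p-values of 0.969 and 0.837 (edgeR).

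The adherens junction gene Cdh5 and the junction gene Pecam1 were higher in every HD mouse than in every WT mouse, but neither passed the adjusted threshold. The shares of all tested genes wholly above WT were the 15.0% and 13.4% given above. Cdh5 (ENSMUSG00000031871, chromosome 8) encodes VE-cadherin, which holds endothelial cells together and is found in few other cells. It was at 8.73, 11.2 and 11.4 CPM in WT, at 14.6, 13.5 and 14.1 CPM in untreated and at 14.4, 14.7 and 14.5 CPM in treated mice. Its log2 fold change was 0.43 (95% interval 0.16 to 0.70, adjusted p = 0.0529, edgeR) in untreated and 0.48 (95% interval 0.20 to 0.75, adjusted p = 0.0631, edgeR) in treated mice against WT. The SD of treated mice was 0.152 CPM, and the HD groups overlapped. With the Y-linked covariate the log2 fold change of Cdh5 in untreated mice was 0.48 (adjusted p = 0.235, edgeR).

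Pecam1 (ENSMUSG00000020717, chromosome 11) encodes CD31, which sits at endothelial contacts, takes part in leukocyte passage and is also found on platelets and leukocytes. Its levels were 15.6, 18.7 and 18.3 CPM in WT, 19.5, 23.2 and 25.7 CPM in untreated and 22, 24.3 and 22.1 CPM in treated mice. Against WT, the log2 fold change of Pecam1 was 0.38 in either HD group, with an adjusted p of 0.0808 in untreated and 0.121 in treated mice (edgeR). With the Y-linked covariate the log2 fold change of Pecam1 in untreated mice was 0.15 (adjusted p = 0.68, edgeR). In treated mice it was 0.05 with the same covariate, the lowest among the alternatives that left out no single mouse. DESeq2 placed Cdh5 past the threshold in both comparisons with WT and Pecam1 in untreated mice, with adjusted p-values of 0.0171, 0.00931 and 0.0376.

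**Figure D1:**
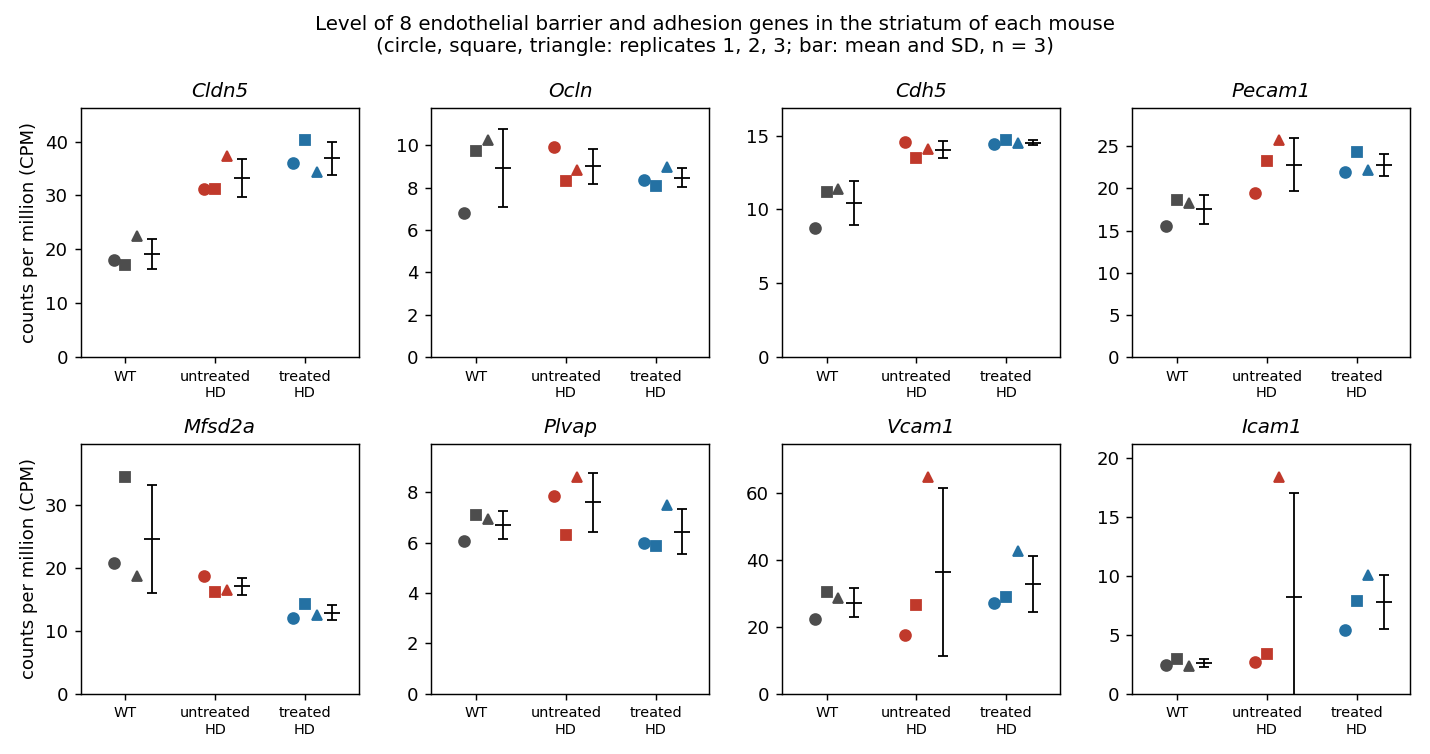
Level of the 8 tested genes in the striatum of each mouse, in CPM, with circles, squares and triangles for replicates 1, 2 and 3 of WT, untreated HD and treated HD mice and bars for the mean and SD (n = 3). Cldn5, Cdh5 and Pecam1 were higher in all 6 HD mice than in all WT mice, Mfsd2a was lower in all of them, and Vcam1 and Icam1 were highest in untreated replicate 3 (the lower end of the Icam1 bar of that group lies below 0 and is not drawn).

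Of the transport genes, Mfsd2a was lower in the HD groups than in WT, and Plvap overlapped between all groups. Mfsd2a (ENSMUSG00000028655, chromosome 4) encodes a transporter of lysophosphatidylcholine with docosahexaenoic acid, and in brain endothelium it keeps vesicle transport low. It was at 20.7, 34.5 and 18.7 CPM in WT, at 18.6, 16.1 and 16.4 CPM in untreated and at 11.95, 14.2 and 12.5 CPM in treated mice. The ranges of the 3 groups did not overlap, WT being highest and treated mice lowest, although WT replicate 3 and untreated replicate 1 lay next to each other. Wholly below WT lay 15.1% of all tested genes in untreated and 15.1% in treated mice, and 8.83% lay wholly below untreated mice in treated mice. The means were 24.6 ± 8.59, 17.1 ± 1.38 and 12.9 ± 1.19 CPM (SD, n = 3 mice each).

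In treated mice Mfsd2a fell to 0.524 of the WT level (log2 fold change −0.93, 95% interval −1.41 to −0.46, adjusted p = 0.0450, edgeR quasi-likelihood test with Benjamini-Hochberg adjustment). In untreated mice its log2 fold change against WT was −0.53 (95% interval −0.999 to −0.06, adjusted p = 0.130, edgeR), and between treated and untreated mice it was −0.40 (95% interval −0.88 to 0.07, adjusted p = 0.903, edgeR). WT replicate 2, with the highest Mfsd2a level, was also the mouse with 3891 CPM of choroid plexus markers, and the part of that tissue in the result was not tested. Without WT replicate 2, the log2 fold change in treated mice was −0.60 (adjusted p = 0.0568, edgeR), and in untreated mice −0.20. The call in treated mice was kept in 6 of 16 alternatives, so that it rests on the setting. It was lost without untreated replicate 1 (adjusted p = 0.0572, edgeR) or 2 (0.0755), and without treated replicate 1 (0.153), 2 (0.132) or 3 (0.151).

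Plvap (ENSMUSG00000034845, chromosome 8) encodes a component of the diaphragms of fenestrae and caveolae, which mature barrier vessels largely lack. Its levels were 6.08, 7.12 and 6.95 CPM in WT, 7.86, 6.31 and 8.63 CPM in untreated and 5.98, 5.86 and 7.49 CPM in the treated group. For Plvap, the log2 fold change was 0.18 (95% interval −0.20 to 0.55, adjusted p = 0.528, edgeR) in untreated and −0.06 (95% interval −0.44 to 0.32, adjusted p = 0.875, edgeR) in treated mice against WT.

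Among the 8 tested genes Vcam1 and Icam1 varied most within both HD groups, while in WT mice Mfsd2a and Ocln did (coefficient of variation 34.9% and 20.8%, against 15.8% for Vcam1 and 13.2% for Icam1), and neither Vcam1 nor Icam1 passed the adjusted threshold. Vcam1 (ENSMUSG00000027962, chromosome 3) encodes the ligand of the integrin made of ITGA4 and ITGB1. It was at 22.3, 30.5 and 28.7 CPM in WT, at 17.6, 26.6 and 65.0 CPM in untreated and at 27.1, 29.0 and 42.6 CPM in treated mice. Untreated replicate 3 had the highest and untreated replicate 1 the lowest level of all mice. The log2 fold change of Vcam1 against WT was 0.42 (95% interval −0.49 to 1.33, adjusted p = 0.543, edgeR) in untreated mice, and −0.30 without untreated replicate 3. In treated mice it was 0.27 (95% interval −0.64 to 1.19, adjusted p = 0.744, edgeR).

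Icam1 (ENSMUSG00000037405, chromosome 9), whose promoter with the GAS match was shown above, encodes the ligand of the integrins LFA-1 and Mac-1. Its levels were 2.46, 2.97 and 2.33 CPM in WT, 2.74, 3.39 and 18.5 CPM in untreated and 5.45, 7.84 and 10.1 CPM in treated mice. All treated mice were above all WT mice, as held for 13.4% of all tested genes. Among untreated mice 2.74 CPM lay within the WT range, 3.39 CPM just above it and 18.5 CPM above all other mice. The coefficient of variation was 13.2%, 108% and 29.7% in WT, untreated and treated mice.

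Icam1 met the DEG definition (at least a 2-fold difference at an unadjusted P under 0.05) in both comparisons with WT, but not the adjusted threshold. In untreated mice the level was 3.17-fold that of WT (log2 fold change 1.66, 95% interval 0.21 to 3.12, adjusted p = 0.126, edgeR), and in treated mice 3.01-fold (log2 fold change 1.59, 95% interval 0.14 to 3.04, adjusted p = 0.195, edgeR). Untreated replicate 3 decided the difference in untreated mice, where the log2 fold change was 0.25 without it. In treated mice the log2 fold change stayed at 1.59 without that mouse, and the adjusted p became 0.00785 (edgeR). In a fit of treated and WT mice alone, the adjusted p of Icam1 was 0.0131 (edgeR). Between treated and untreated mice the log2 fold change was −0.07 (95% interval −1.46 to 1.31, adjusted p = 0.999, edgeR), and without untreated replicate 3 it was 1.34 (adjusted p = 0.789, edgeR). With the Y-linked signal as a covariate, the log2 fold change in treated mice against WT was −0.40. That value rests on untreated replicate 1, at 2.74 CPM, against the other untreated mice, at 3.39 and 18.5 CPM, and cannot separate sex from group.

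The selectins were close to undetected. Sele (ENSMUSG00000026582, chromosome 1) had 0 counts in each WT mouse, 4, 8 and 0 counts in untreated and 2, 0 and 0 counts in treated mice, and untreated replicate 3, with the highest Icam1 and Vcam1, had none. Selp (ENSMUSG00000026580, chromosome 1), which encodes P-selectin of endothelium and platelets, had 2, 0 and 3 counts in WT, 2, 0 and 0 counts in untreated and 0, 0 and 4 counts in treated mice. A count of 0 allows up to 3 counts, or 0.0919 to 0.113 CPM, and this limit covers counting error only. When no filter was applied, Sele in untreated against WT mice had an unadjusted P of 0.0408 and an adjusted p of 0.256 (edgeR), and a difference between groups was not detectable at this depth.

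**Figure D2:**
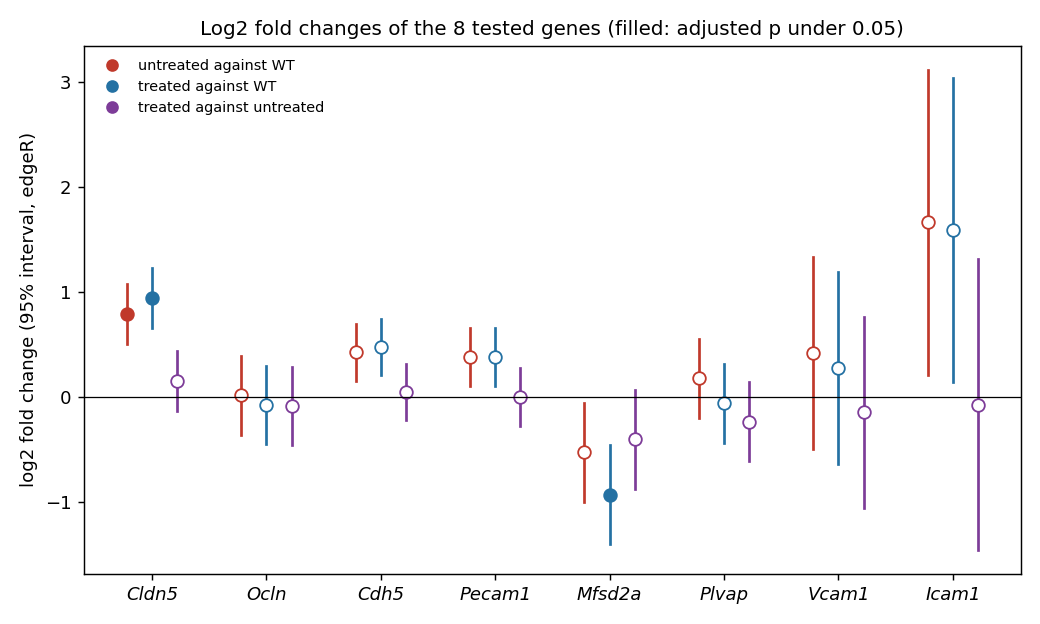
Log2 fold change of the 8 tested genes with its 95% interval from edgeR, in untreated HD against WT (red), treated HD against WT (blue) and treated against untreated HD mice (purple), where filled symbols mark an adjusted p under 0.05. Cldn5 is filled in both comparisons with WT (0.79 and 0.94) and Mfsd2a in treated mice (−0.93), no gene is filled between the HD groups, and the intervals of Icam1 are the widest.

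Counted over the genes, 1 of the 8 tested (Cldn5) was called higher and 0 lower in untreated against WT mice, where 4.58% of all tested genes were called higher, 6.10% lower and 10.7% in either direction. In treated against WT mice, 1 was called higher (Cldn5) and 1 lower (Mfsd2a), with a background of 0.904% higher, 2.78% lower and 3.69% in either direction. In treated against untreated mice edgeR called 0 of 8, as it called 0% of all tested genes, 0 of the 8 had an unadjusted P under 0.05 (5.50% of all genes), and DESeq2 called 0 of 8 as well. Of the 8 genes, only Icam1 met the DEG definition against WT, in untreated mice beside 8.16% of all genes and in treated mice beside 5.22%. The DEG definition was met by 0 of 8 genes between the HD groups, beside 0.771% of all genes.

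Groups without overlap were common in these data. In untreated against WT mice, 3 of the 8 genes lay wholly above WT (15.0% of all genes) and 1 wholly below (15.1%). In treated against WT mice, 4 lay wholly above (13.4%) and 1 wholly below (15.1%), and in treated against untreated mice 0 lay wholly above (6.92%) and 1, Mfsd2a, wholly below (8.83%). The median log2 fold change of the 8 genes was 0.40, 0.33 and −0.08 in the 3 comparisons, beside 0.02, 0.00 and −0.01 over all tested genes.

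Because the summed level of endothelial markers was higher in HD than in WT mice, the 8 genes were also set against the mean log2 CPM of the 21 endothelial genes in the same mouse, which was 3.68 to 3.81 in WT, 3.82 to 4.21 in untreated and 3.84 to 3.97 in treated mice. Relative to this mean, Cldn5 was 0.58 higher on the log2 scale in untreated and 0.80 higher in treated than in WT mice, and no HD mouse overlapped with WT (two-sided exact permutation test, p = 0.1 in each, the smallest that 3 mice against 3 allow). Mfsd2a differed from WT by −0.69 in untreated and by −1.03 in treated mice (exact permutation test, p = 0.1 in each). For Pecam1 the differences from WT were 0.16 and 0.24 (exact permutation test, p = 0.1 in each), and for Cdh5 they were 0.22 (p = 0.3) and 0.34 (p = 0.1, exact permutation test). Icam1 was 0.88 above WT in untreated (p = 0.2) and 1.38 above WT in treated mice (p = 0.1, exact permutation test). Vcam1 differed by −0.01 and 0.11, Ocln by −0.18 and −0.20 and Plvap by −0.05 and −0.21, with exact permutation p-values between 0.2 and 1. The differences moved with the reference. Cldn5 and Cdh5 are 2 of the 8 genes and were themselves higher in HD mice. Taking their mean as the reference lowers every other gene by the same amount within a comparison, so that the shift is no separate result. Set against this mean instead, the differences of Pecam1 turned to −0.24 in untreated and −0.33 in treated mice, and those of Vcam1 were −0.40 and −0.46. Against the same pair Ocln was at −0.58 and −0.77, Plvap at −0.45 and −0.78, Mfsd2a at −1.09 and −1.60 and Icam1 at 0.48 and 0.81.

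**Figure D3:**
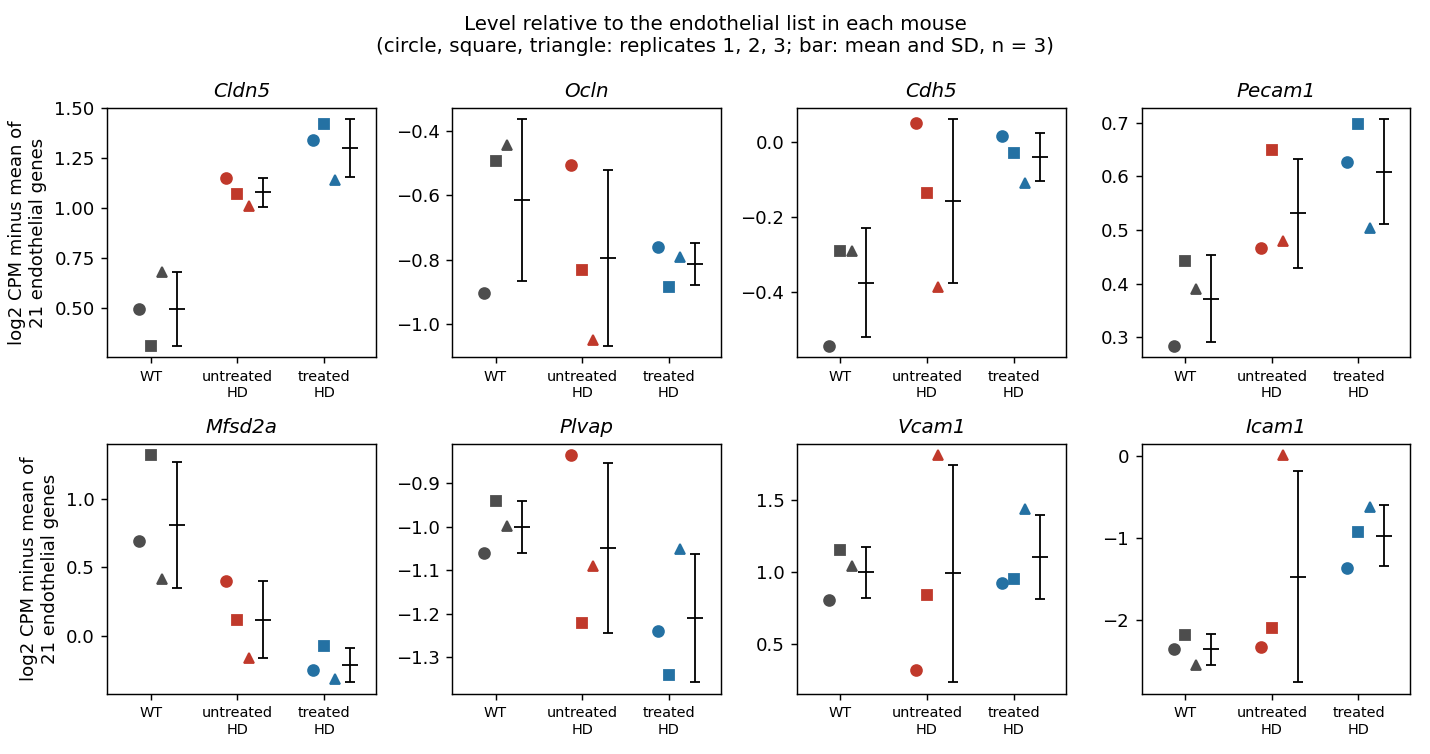
Log2 CPM of the 8 tested genes minus the mean log2 CPM of 21 general endothelial genes in the same mouse, with symbols for replicates 1 to 3 and bars for the mean and SD (n = 3), each panel with its own vertical axis. Cldn5 stays above WT in all 6 HD mice (means of 0.496, 1.08 and 1.30 in WT, untreated and treated mice) and Mfsd2a stays below it (0.812, 0.119 and −0.214).

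Lists of other vessel genes gave the setting of these values, and their counts stand beside the shares of all tested genes given above, 10.7% called in untreated and 3.69% in treated against WT mice, and beside medians over all tested genes of 0.02 and 0.00378. Of 19 further junction genes, all tested, 1 was called higher and 1 lower in untreated against WT mice and 0 in treated mice, with a median log2 fold change of −0.08 and −0.09. The 2 of 19 in untreated mice were near the share of all genes. The called genes were Nectin2, an adherens junction protein (0.67, adjusted p = 0.0470, edgeR), and Cldn12, a claudin that is not specific to vessels (−0.52, adjusted p = 0.0249, edgeR). Neither was called without WT replicate 3 or without untreated replicate 1 or 3. Tjp1, the scaffold that anchors claudins, stood at −0.05 and −0.07 against WT in untreated and treated mice.

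Of 19 transporter and caveolar genes, 2 were called higher and 1 lower in untreated against WT mice and 0 in treated mice, with medians of 0.24 and 0.14, where 4.58% of all genes were called higher and 6.10% lower in untreated mice. The number called higher was 0 without untreated replicate 2 or 3 or any 1 treated mouse. Cav2, a caveola protein, was at 8.26 to 18.1 CPM in WT, 25.7 to 29.4 CPM in untreated and 19.1 to 21.7 CPM in treated mice, and rose in untreated mice (log2 fold change 0.94, adjusted p = 0.0390, edgeR). Abcb1a, the drug efflux pump P-glycoprotein, rose in untreated mice (0.48, adjusted p = 0.0458, edgeR) and stood at 0.43 in treated mice (adjusted p = 0.1, edgeR). Slc6a6, the taurine transporter, which neurons and glia also express, fell in untreated mice (−0.54, adjusted p = 0.0113, edgeR). Of 21 Wnt pathway and transcription factor genes of the barrier, 0 were called higher and 1 lower in untreated mice, the Wnt co-receptor Lrp6 (−0.37, adjusted p = 0.0346, edgeR), and 0 were called in treated mice, with medians of −0.08 and 0.04. In untreated mice 0 of them were called without TMM factors, without WT replicate 2 or 3 and without any 1 untreated mouse.

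Among the 21 general endothelial markers, 2 were called higher in untreated and 1 in treated against WT mice and 0 lower, with medians of 0.30 and 0.14. The background was 4.58% of all genes called higher in untreated and 0.904% in treated mice. The median in untreated mice was 0.00571 without untreated replicate 3 and −0.03 with the Y-linked covariate. Tek, the angiopoietin receptor TIE2, was at 9.97 to 11.4 CPM in WT, 13.7 to 16.2 CPM in untreated and 14.3 to 15.9 CPM in treated mice, and rose in both (0.48, adjusted p = 0.0305, and 0.51, adjusted p = 0.0409, edgeR). In treated mice 0 of the markers were called without WT replicate 2, without untreated replicate 1 or 2 or without any 1 treated mouse, and 2 without WT replicate 3. The number was also 0 without a filter, with the replicate block and with the Y-linked covariate. Cd34, a sialomucin of small vessels, rose in untreated mice (1.10, adjusted p = 0.0173, edgeR), from 20.2 to 35.4 CPM in WT to 45.1 to 71.1 CPM. The VEGF receptor genes Flt1 and Kdr stood at 0.39 and 0.40 in untreated mice and at 0.35 and 0.58 in treated mice, and were not called. Between the HD groups, Nostrin, a regulator of endothelial nitric oxide synthase, had the smallest P of these markers, with a log2 fold change of −0.88 (adjusted p = 0.736, edgeR). Of 14 pericyte and smooth muscle markers, Rgs5, a pericyte marker, rose in untreated mice (0.44, adjusted p = 0.0307, edgeR), and 0 were called in treated mice. In untreated mice 0 of these 14 were called without WT replicate 1 or 2 or without untreated replicate 2 or 3.

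**Figure D4:**
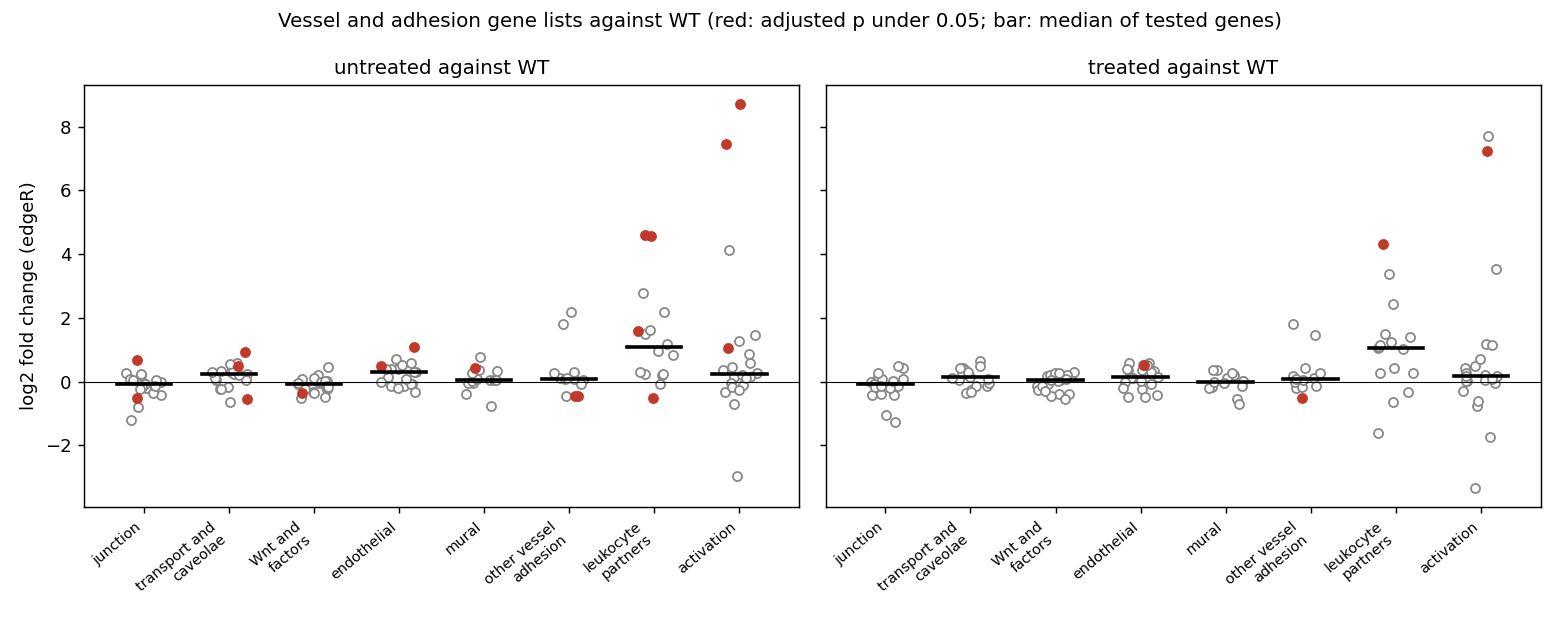
Log2 fold change against WT, from edgeR, of each tested gene in 8 lists of vessel and adhesion genes, for untreated (left) and treated HD mice (right), with red symbols for an adjusted p under 0.05 and bars for the median of a list. The medians of the junction, Wnt, mural and other vessel adhesion lists lie near 0, and the leukocyte partners of the adhesion genes have the highest median, 1.08 in untreated and 1.06 in treated mice, which was 0.39 in untreated mice without untreated replicate 3.

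A further list held the partners that leukocytes use to bind ICAM-1, VCAM-1 and the selectins. Of 17 such genes 16 were tested, and 3 were called higher and 1 lower in untreated and 1 higher in treated against WT mice. Under the DEG definition 8 were higher in untreated mice, and 10 were higher and 1 lower in treated mice, beside 8.16% and 5.22% of all genes in either direction. In untreated mice 2 met the definition without untreated replicate 3, and in treated mice 3 did without WT replicate 2 or without treated replicate 3. The median log2 fold change of the list was 1.08 and 1.06, but 0.39 in untreated mice without untreated replicate 3 and 0.12 and −0.20 with the Y-linked covariate. Itgax, the CD11c chain found on dendritic cells and activated microglia, was at 0.147 to 0.432 CPM in WT, 1.72 to 17.5 CPM in untreated and 3.46 to 9.05 CPM in treated mice, and rose in both (log2 fold change 4.59, adjusted p = 0.0176, and 4.33, adjusted p = 0.0375, edgeR). Itga4, the integrin chain that binds VCAM-1, rose in untreated mice (1.59, adjusted p = 0.0455, edgeR) and was at 6.53 to 26.2 CPM there, 3.34 to 6.25 CPM in WT and 10.2 to 10.8 CPM in treated mice. Spn, a leukocyte sialophorin, rose in untreated mice (adjusted p = 0.0485, edgeR), from 0.0665 to 0.147 CPM in WT to 0.491 to 6.76 CPM. The LFA-1 chains, which bind ICAM-1, met the DEG definition in both HD groups, with log2 fold changes of 2.77 and 2.42 for Itgal and 1.48 and 1.26 for Itgb2 and adjusted p-values between 0.0618 and 0.167 (edgeR). St3gal4, a sialyltransferase that helps build selectin ligands and is widely expressed, fell in untreated mice (−0.50, adjusted p = 0.0399, edgeR). Selplg, the main ligand of P-selectin, stood at 0.30 and 0.42.

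Of 14 other adhesion genes of the vessel wall 13 were tested, and 0 were called higher and 2 lower in untreated and 1 lower in treated against WT mice. Cx3cl1, the chemokine fractalkine, which in the brain is made mainly by neurons, fell in both (−0.44, adjusted p = 0.0183, and −0.52, adjusted p = 0.0156, edgeR), and Vcan, a matrix proteoglycan, fell in untreated mice (−0.46, adjusted p = 0.0353, edgeR). The summed level of 10 striatal projection neuron markers, which moved with the groups too, was 6789 to 8786 CPM in WT, 2066 to 2448 CPM in untreated and 3261 to 3295 CPM in treated mice, and its part in these falls was not tested. Of the 13 adhesion genes, 2 met the DEG definition as higher in untreated and 1 in treated mice, beside 8.16% and 5.22% of all genes in either direction. With the Y-linked covariate 0 met it. Lgals9, which encodes galectin-9, averaged 4.47 ± 1.73, 15.6 ± 10.9 and 12.5 ± 6.10 CPM in WT, untreated and treated mice (SD, n = 3 mice each), and was not called higher. Of 25 genes listed for endothelial activation 22 were tested, with 3 called higher in untreated and 1 in treated mice against WT, beside 4.58% and 0.904% of all genes. In both comparisons 0 were called higher without WT replicate 2 and with the Y-linked covariate. In treated mice 0 were called higher without any 1 WT or treated mouse, and 3 without untreated replicate 3. The cells that made these transcripts in whole striatum were not identified, so that a rise is not shown to be endothelial. Cxcl10, a chemokine that attracts T cells, was at 0 to 0.147 CPM in WT, 3.23 to 32.3 CPM in untreated and 3.89 to 26.4 CPM in treated mice, and rose in both (adjusted p = 0.0198 and 0.0383, edgeR). Cxcl9, with the same receptor, was at 0 to 0.0734 CPM in WT and 1.30 to 30.0 CPM in untreated mice (adjusted p = 0.0251, edgeR), and Ptgs2, the inducible cyclooxygenase, rose in untreated mice (1.06, adjusted p = 0.0196, edgeR). Fitted fold changes of Cxcl9 and Cxcl10 are not given, since counts in WT were near 0. In treated against untreated mice edgeR called 0 genes of any of these lists. The counts rested on single mice, as the leukocyte partners called higher in untreated mice were 1 without untreated replicate 3, 8 without untreated replicate 1 and 0 without WT replicate 2, those in treated mice were 9 without untreated replicate 3 and 0 without any 1 WT or treated mouse, and the endothelial markers called in untreated mice were 0 without WT replicate 2 and 4 without WT replicate 3.

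Untreated replicate 3 and treated replicate 3 had the highest Icam1 and Vcam1 and also the most interferon response and T cell transcripts. In untreated replicates 1 to 3 the summed interferon list was at 189, 314 and 1292 CPM, and in treated replicates 1 to 3 at 164, 237 and 907 CPM. The T cell list was at 5.23, 13.6 and 106 CPM in untreated and at 5.76, 11.2 and 27.9 CPM in treated mice, and each WT mouse had 6 to 10 of its 12 markers at 0. Untreated replicate 1 had an interferon list above every WT mouse but an Icam1 level of 2.74 CPM, below WT replicate 2, and the lowest Vcam1 level of all mice. Icam1 was at 5.45 and 7.84 CPM in treated replicates 1 and 2, but at 3.39 CPM in untreated replicate 2. The latter had higher interferon and T cell lists than either of these treated mice. Summed levels of 7 B cell and plasma cell markers were 0.954 to 1.44 CPM in WT, 8.67 to 104 CPM in untreated and 60.3 to 123 CPM in treated mice, and those of 8 microglia markers 313 to 345, 358 to 698 and 451 to 527 CPM. Levels of 7 astrocyte markers were 3020 to 3582, 3301 to 3817 and 3266 to 3694 CPM. The part of these cells in the levels of Icam1 and Vcam1 was not tested.

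**Figure D5:**
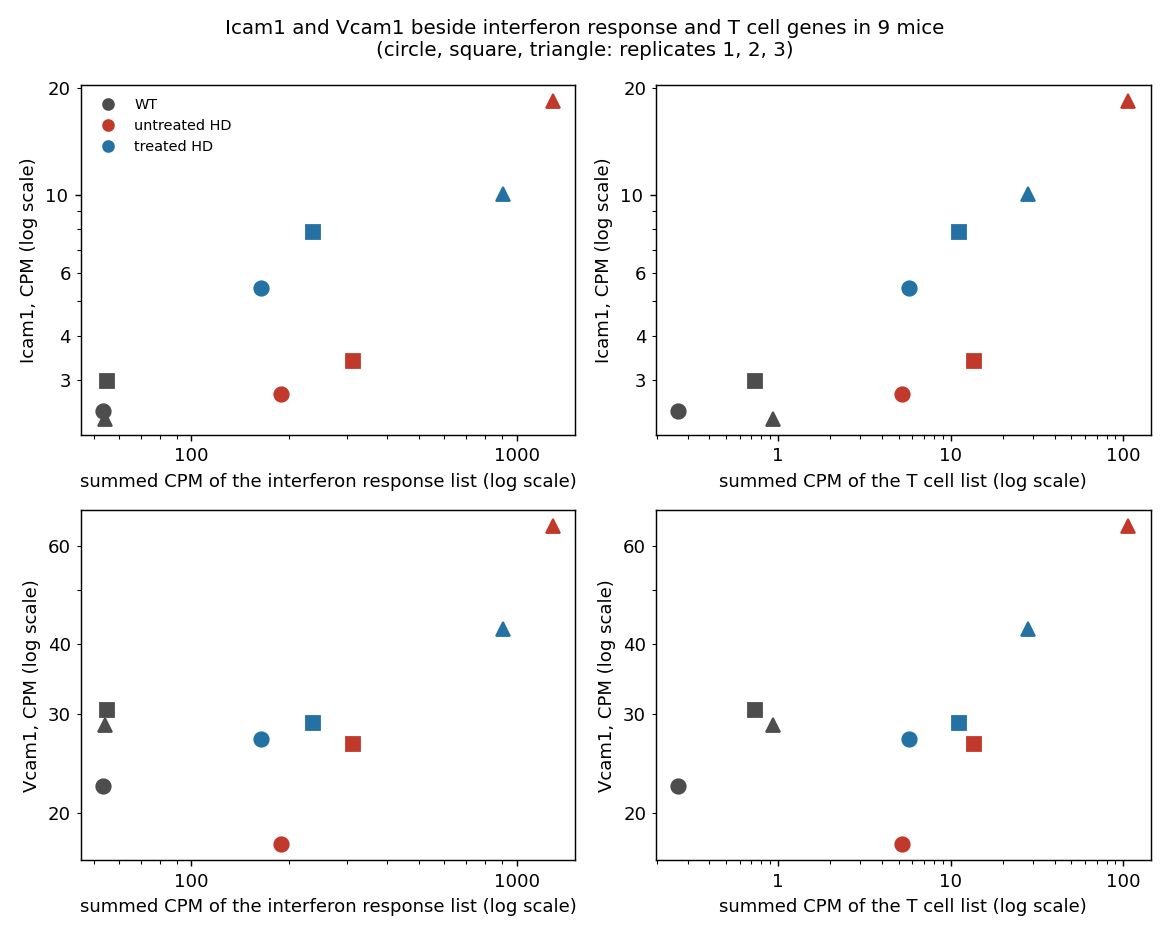
Icam1 (top) and Vcam1 (bottom) in CPM against the summed CPM of 12 interferon response genes (left) and of 12 T cell genes (right) in each of the 9 mice, all axes on a log scale. Untreated replicate 3, with 18.5 CPM of Icam1 and 65.0 CPM of Vcam1, is at the top right of every panel and treated replicate 3 lies next to it, while the other untreated mice have Icam1 close to WT although both lists are higher in them.

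After the mean of each group had been removed, Icam1 and Vcam1 deviated together over the 9 libraries (Pearson r = 0.948, and 0.782 without untreated replicate 3), as did Ocln and Cdh5 (r = 0.954, and 0.957 without it). Cldn5 did not follow Cdh5 or Ocln closely (r = 0.297 and 0.169), and its r with Mfsd2a was −0.488. These values are given as a description, since the points share libraries and 1 mouse can set them. Genes most like each member were picked as the 3 with the highest r among all tested genes. With so many genes and 9 libraries, a high r is expected from the selection alone. By the same measure, the genes most like Icam1 among all tested genes were Ctsw (0.996), Cotl1 (0.992) and Nfkb2 (0.991), and those most like Vcam1 were St14 (0.996), Il2rg (0.994) and Fgl2 (0.990). The genes most like Cldn5 were 4732440D04Rik (0.979), Megf11 (0.975) and Wdfy1 (0.970), and those most like Mfsd2a were Rabac1 (0.988), Ndufa1 (0.988) and Tomm7 (0.986). For Pecam1 they were Ak9 (0.992), Igkc (0.991) and Mzb1 (0.980), of which Igkc and Mzb1 are genes of plasma cells. Cdh5 was most like 4931403E22Rik (0.978), Sf1 (0.977) and Syndig1 (0.967), Ocln most like Syndig1 (0.978), Acad10 (0.976) and Gtf2a1l (0.974), and Plvap most like Rpl36a-ps3 (0.989), Pdia3 (0.974) and C1qtnf7 (0.971).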

How the data were processed

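From mouse striatum the authors sequenced the 3′ ends of mRNA, primed with oligo-dT, and deposited raw counts of reads per Ensembl gene, whole numbers without normalization. The paper names STAR, whereas the submitters' processing notes list Trimmomatic 0.39, FastQC 0.11.9, HISAT2 2.2.1 and featureCounts 2.0.1. The mouse genome build, the strand setting and the use of molecular identifiers are not given in the sources used here, and only chromosomes are stated (GENCODE M21). The pig table was not used here.

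The analysis used edgeR 4.0.16 in R 4.3.3. Genes were kept by filterByExpr, scaled by TMM, and all 9 mouse libraries (27184356 to 32102121 counts) were fitted together with glmQLFit (6 residual degrees of freedom). Comparisons were made by glmQLFTest with Benjamini-Hochberg adjustment over 19463 genes, called at an adjusted p under 0.05. A DEG differed at least 2-fold at an unadjusted P under 0.05, while the paper's methods give P under 0.01. Intervals rest on a standard error taken from the fold change and F. Log2 CPM used a prior count of 2. Pairs of libraries of the same group differed by more than sampling noise. The fit was tested on simulated data.

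The 10 genes and all lists were chosen with earlier results of these data known. In each list up to 4 genes with the smallest P in untreated against WT mice and up to 2 more with the smallest P in treated against untreated mice were open to be named. Tjp1, Itgal, Itgb2 and Selplg were named after their values were seen, and markers of red blood cells and fibroblasts are given in the closing section. Alternatives were no TMM factors, DESeq2 1.42.0, a fit of 2 groups at a time, no filter, a minimum of 10 counts in all libraries, the replicate number as a block, the Y-linked signal as a covariate, P under 0.01, a prior count of 0.5, Cldn5 and Cdh5 as the reference, an endothelial list without Ly6a and Ly6c1 (added after seeing the data) and each mouse left out in turn. Figures were drawn with matplotlib 3.10.9.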

Additional observations from a re-analysis of the deposited data

How the results depend on the processing

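The number of the 8 genes called in untreated against WT mice (1) was 2 without TMM factors and with at least 10 counts in every library, 3 in DESeq2, 0 with the Y-linked covariate and 1 to 2 with each mouse left out in turn. In treated against WT mice (2) it was 1 without TMM factors and without a filter, 0 with the Y-linked covariate and 1 to 3 with mice left out. The number meeting the DEG definition in untreated mice (1) was 0 at P under 0.01, with the replicate block and with the Y-linked covariate, and 0 to 1 with mice left out. In treated mice (1) it was 0 at P under 0.01 and with the covariate, 2 without TMM factors and 0 to 2 with mice left out, and between the HD groups (0) it was 0 to 1 with mice left out. The cause of these shifts was not tested. Values with the Y-linked covariate rest on untreated replicate 1 against the other untreated mice, and cannot separate sex from group in treated against WT mice. Signs turned with the Y-linked covariate for Vcam1 in untreated (−0.63) and treated mice (−1.11), for Ocln (0.13), Plvap (0.0129) and Icam1 (−0.40) in treated mice against WT and for Pecam1 between the HD groups (−0.10), and with the replicate block for Icam1 between the HD groups (0.27). With mice left out, signs turned for Ocln (−0.16 to 0.12) and Vcam1 (−0.30 to 0.74) in untreated mice, for Ocln (−0.246 to 0.0433) and Plvap (−0.181 to 0.00832) in treated mice, and for Pecam1 (−0.0941 to 0.0956), Vcam1 (−0.47 to 0.57) and Icam1 (−0.47 to 1.34) between the HD groups. Leukocyte partners called higher in untreated mice (3) were 10 in DESeq2 and 0 with the covariate, and those in treated mice (1) were 4 in DESeq2 and 9 in a fit of the compared groups alone. Of the single-gene tests, 393 kept direction and side of the threshold, 17 turned direction, 14 lost and 8 gained a call.

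The replicate numbers were not taken as pairs, since the correlation of deviations of same-numbered mice ran from −0.0805 to 0.0637 and from −0.0617 to 0.0849 for untreated and treated against WT and from −0.00304 to 0.236 between the HD groups. With the number as a block, calls over all genes went from 2080 to 2018, from 718 to 778 and from 0 to 0, and 1, 1 and 2 of 3 mice were closest to the mouse with their own number. With 3 mice a group, an exact permutation p cannot go below 0.1, and the selectins, at 0 to 8 counts a library, did not pass the filter.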

Other observations

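Vessels hold blood as well as endothelium, and the summed level of 10 markers of red blood cells and platelets, a sum led by haemoglobin genes, was lower in every HD mouse than in every WT mouse. It was 195, 111 and 192 CPM in WT, 8.49, 71.6 and 49.9 CPM in untreated and 57.4, 6.52 and 8.98 CPM in treated mice, replicates 1 to 3. For comparison, 15.1% of all tested genes lay wholly below WT in untreated mice, and 15.1% did in treated mice. Of the 7 genes tested 0 were called in either comparison with WT (edgeR, adjusted p), and 5 met the DEG definition as lower in treated mice, while 2 had positive log2 fold changes in both. In treated mice 5.22% of all genes met the definition in either direction. The number there was 1 without treated replicate 2 or 3 and 2 without WT replicate 3. The platelet gene Gp1bb averaged 1.10 CPM in WT, 1.95 CPM in untreated and 1.39 CPM in treated mice. Of 9 markers of vascular and leptomeningeal fibroblasts 0 were called, with summed levels of 229 to 493 CPM in WT, 221 to 326 CPM in untreated and 254 to 286 CPM in treated mice.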
